A study of Homo sapiens with 21 samples.

Results

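GDF15, growth differentiation factor 15, is a secreted protein of the TGF-beta superfamily, and its mRNA was followed here in hTERT-HPNE cells, an immortalized nontransformed pancreatic cell line, after oxidative stress or DNA damage. GDF15 is 1 of the 23368 genes listed and was chosen by its difference from untreated cells at 24 h, the largest rise of the table in both treatments. The 21 libraries form 7 groups of 3. The untreated cells were harvested at 0 h, 3 groups were harvested 4, 8 and 24 h after 300 μM H2O2, which oxidizes proteins, lipids and DNA, and 3 groups were harvested at the same times after 400 ng/ml neocarzinostatin (NCS), a drug that breaks DNA. All groups are the same cell line grown in the same medium, which contains EGF and puromycin. No untreated cells were harvested at 4, 8 or 24 h, so treatment and time in culture cannot be told apart in a difference from untreated cells, whereas H2O2 and NCS can be compared at the same hour.

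GDF15 is made at low level by most healthy tissues and is released under many kinds of cellular stress. Its best established receptor, GFRAL, sits with the co-receptor RET on neurons of the hindbrain, where the hormone lowers food intake. The transcription of the GDF15 gene is known to be raised by p53, the main transcription factor of the DNA damage response, and by ATF4 and DDIT3 (CHOP), the transcription factors of the integrated stress response, which follows amino acid shortage, oxidative stress and misfolded protein.

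In GENCODE v29 the gene lies on the plus strand at chr19:18386158-18389176 of GRCh38 and has 2 exons of 309 and 891 bases. The deposited table carries no coordinates, and its processing notes name hg19. The 250 bases before the RefSeq start of the gene, at chr19:18385908-18386157 of GRCh38.p14 on the plus strand, are shown because the factors discussed with the lists of genes act on this gene. The capitals mark the matches to a GC box (GGGCGG, read on both strands), the letters bound by SP1, and to a TATA box (TATAAA).

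GDF15 promoter: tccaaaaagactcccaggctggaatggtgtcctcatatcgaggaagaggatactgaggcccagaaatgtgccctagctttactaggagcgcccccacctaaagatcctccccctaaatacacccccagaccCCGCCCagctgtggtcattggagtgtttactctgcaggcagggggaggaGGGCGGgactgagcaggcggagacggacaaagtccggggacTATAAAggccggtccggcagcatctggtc

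The GC box matched at -119 on the minus strand and at -70 on the plus strand relative to the start, and the TATA box matched at -29. Of 35116 RefSeq promoter windows of this length, 42.6% hold GGGCGG and 10.7% hold TATAAA on either strand. The letters TGANTCA (AP-1, in 6.6% of windows), TGACG (a part of the cAMP response element, in 21.2%), TGATG (the first part of the element bound by ATF4 with a C/EBP partner, in 28.8%) and the decamer of the p53 response element (in 5.6%) had no match in this window. A match describes letters and was not tested as a binding site.

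The values are rLog values, the log2-like scale on which DESeq2 stabilizes counts, so a difference of 1 between groups is a 2-fold difference on this scale. The transformation pulls differences towards 0, and it does so most where reads are few. No counts were used, and the depth of the libraries is unknown. The p-values rest on the spread between the 3 libraries within groups, pooled for each gene over the 7 groups. The fit then draws this spread towards that of genes of similar level. The median of a library lay between 7.145 and 7.189. The cell line's markers NES (lowest library 11.78, highest 12.28) and VIM (16.79 to 17.25) were high. The ductal markers were mixed, with KRT18 at 11.38 to 11.85, KRT8 at 7.73 to 8.28 and SOX9 at 5.78 to 6.48, but KRT19 at 0.58 to 0.73 and CFTR at -1.34 to -1.30. The acinar AMY2A (-2.31), the endocrine GCG (-1.90 to -1.89) and the leukocyte marker PTPRC (0.89 to 0.98) were low. Acinar CPA1 (-2.18 to -2.17) and endothelial PECAM1 (2.02 to 2.42) were low too. PRSS1 and INS were among the 3674 genes listed at 0 in every library. Those genes were left out, and their 0 is not a level to set against the negative values above. The library of H2O2 at 8 h, replicate 2, stood apart from its replicates, with distances of 14.744 and 15.149 over all genes against 11.438 between the other two and 8.939 to 11.207 within the other groups.

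Untreated cells had GDF15 rLog values of 9.16, 9.16 and 9.19. The values after H2O2 were 10.87, 10.88 and 10.95 (4 h), then 12.40, 11.71 and 12.35 (8 h), then 12.41, 12.45 and 12.40 (24 h). The values after NCS were 11.17, 11.21 and 11.24 (4 h), then 11.45, 11.41 and 11.35 (8 h), then 11.48, 11.62 and 11.61 (24 h). Every treated library was above every untreated library, and the lowest treated group was H2O2 at 4 h. In ascending order, the group means ± SD (n = 3) were 9.17 ± 0.02 in untreated cells, 10.90 ± 0.04 in H2O2 at 4 h, 11.20 ± 0.03, 11.40 ± 0.05 and 11.57 ± 0.08 in NCS at 4, 8 and 24 h, then 12.15 ± 0.38 in H2O2 at 8 h and 12.42 ± 0.03 in H2O2 at 24 h. Neighbouring groups in this order did not overlap, except H2O2 at 8 h and at 24 h, whose 0.27 difference was smaller than the spread at 8 h.

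**Figure D1:**
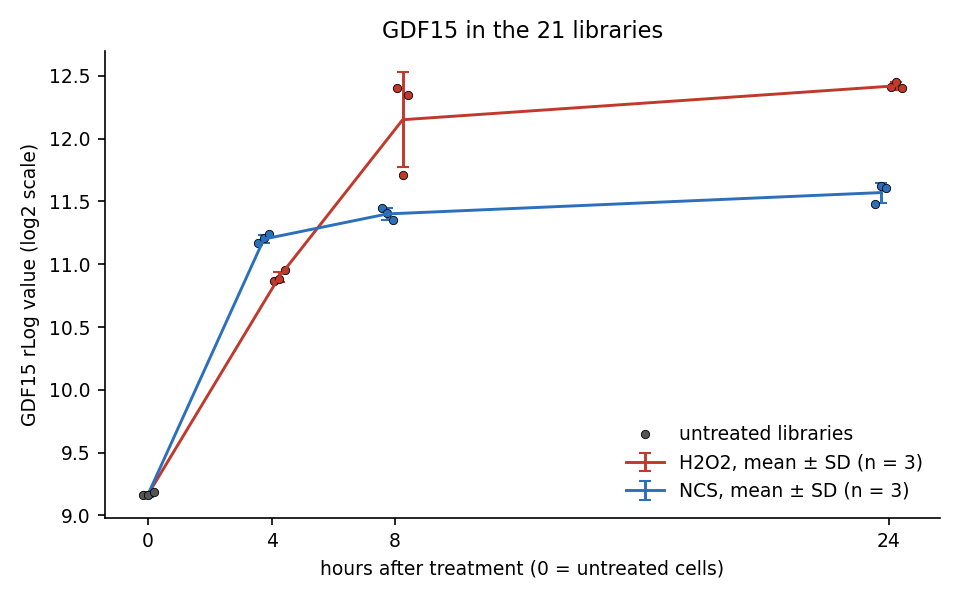
The rLog value of GDF15 (vertical axis, log2 scale) is plotted against hours after treatment for H2O2 (red) and NCS (blue), with untreated cells at 0 h, a point per library, lines through the group means and bars of 1 SD. NCS lies above H2O2 at 4 h (11.20 against 10.90) and below it at 8 h (11.40 against 12.15) and at 24 h (11.57 against 12.42).

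Over untreated cells, GDF15 was higher by 1.73 at 4 h, 2.98 at 8 h and 3.25 at 24 h after H2O2, and by 2.04, 2.23 and 2.40 after NCS, each with an SE of 0.11. On the rLog scale the 24 h differences correspond to 9.52-fold after H2O2 and 5.29-fold after NCS. These 24 h differences chose the gene, and all 6 use the same untreated libraries, so they are given as a description with no test. Of the 24 h log2 difference, 53.2% was present at 4 h and 91.8% at 8 h in H2O2, against 84.7% at 4 h and 93% at 8 h in NCS. From 8 h to 24 h GDF15 gained 0.27 under H2O2 and 0.17 under NCS. In bulk RNA, a larger share of cells expressing GDF15 and more GDF15 mRNA per cell cannot be told apart.

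Among the 19694 genes that were not at 0 in every library, GDF15 had the highest difference from untreated cells at 8 h and at 24 h in both treatments. At 4 h it was second in NCS, behind BTG2 (2.10), an antiproliferative p53 target, and 24th in H2O2, where FOSB (4.88), a subunit of AP-1, ATF3 (3.45), a stress-induced transcription factor, and HMOX1 (3.44), the heme-degrading oxygenase, led. Just below GDF15 at 24 h of H2O2 came UNC5B, a netrin receptor (2.87), TRIB3, a pseudokinase induced by ATF4 (2.08), and ADM2, a peptide hormone (1.96). Just below it at 24 h of NCS came PAPPA, a protease of IGF-binding proteins (1.89), the CDK inhibitor CDKN1A (1.48) and BTG2 (1.47). A difference over 1 in all 6 treated groups was found for 4 genes, GDF15, BTG2, CDKN1A and SESN2, a stress-induced regulator of mTORC1. The lowest of these differences for SESN2, 1.00 at 24 h of NCS, lay at the limit.

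**Figure D2:**
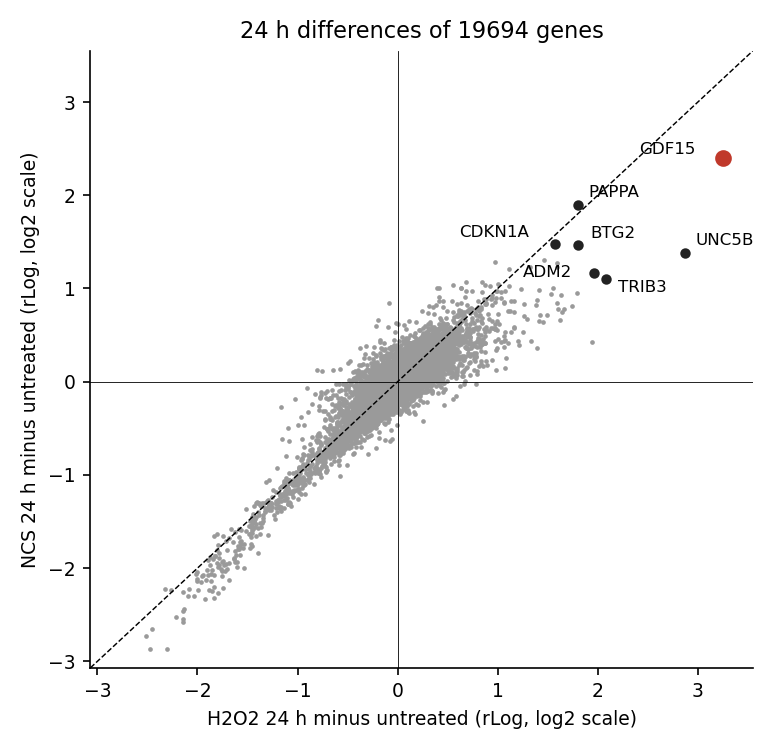
Each point is a gene, with its difference from untreated cells at 24 h after H2O2 (horizontal axis) and after NCS (vertical axis), both in rLog units on a log2 scale. The dashed line marks equal differences, GDF15 (red) lies at 3.25 and 2.40, and the 6 named black points are the genes next below it in either treatment.

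Relative to transcript length, GDF15 rose from the 2792nd highest level of the 17098 genes with an annotated exon length in untreated cells (the top 16.3%) to the 220th in H2O2 at 24 h (the top 1.29%) and the 455th in NCS at 24 h (the top 2.66%). These are ranks of the group mean rLog value less log2 of the exon length in kb, with 1200 exon bases for GDF15. At 4 h it was 817th in H2O2 and 621st in NCS.

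H2O2 and NCS were compared at the same time point to ask whether the level of GDF15 differed between 300 μM H2O2 and 400 ng/ml NCS. No other dose was sequenced, so the kind of stress and its severity cannot be told apart. At 4 h the 3 H2O2 libraries lay between 10.87 and 10.95 and the 3 NCS libraries between 11.17 and 11.24, with no overlap. GDF15 was lower in H2O2 by 0.30 (difference -0.30, SE 0.11, adjusted p = 0.0319, limma over all genes). Of all genes, 44.4% passed the same test at 4 h. At 8 h the order was the opposite, with H2O2 at 11.71 to 12.40 and NCS at 11.35 to 11.45, again without overlap. GDF15 was higher in H2O2 by 0.75 (SE 0.11, adjusted p = 3.29e-05), where 34.1% of all genes passed. The change of the H2O2 minus NCS difference from 4 h to 8 h was 1.05 (SE 0.16, adjusted p = 4.67e-05), the 8th highest of all genes, and 14.7% of genes passed in this direction. At 24 h the difference was 0.85 (SE 0.11), which is given without a test because the 24 h values chose the gene.

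Within H2O2 the level rose from 4 h to 8 h by 1.25 (SE 0.11, adjusted p = 4.77e-08), the second highest such step of all genes, and 45.7% of genes passed in either direction. Within NCS the step was 0.20 (SE 0.11, adjusted p = 0.31), where 13.7% of genes passed, although the NCS libraries at 4 h and at 8 h did not overlap. The exact two-sided permutation p of each of these comparisons of 3 libraries with 3 was 0.1, the smallest that the design allows.

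The fit pools the spread of GDF15 over all groups (SD 0.15). The groups other than H2O2 at 8 h had SDs of 0.02 to 0.08, so the same SE serves groups of unlike spread. The widest group was H2O2 at 8 h (SD 0.38), through its replicate 2. This library was 0.66 below the mean of the other two in GDF15, the second lowest such value of 19694 genes. In the same library 27 of 30 p53 targets and 22 of 24 integrated stress response genes were below both other replicates, against 9221 of all 19694 genes. Without it, the 8 h difference of H2O2 minus NCS was 0.97 (adjusted p = 4.88e-12) and that of 4 h was -0.30 (adjusted p = 1.19e-06), the H2O2 step from 4 h to 8 h was 1.47, the change from 4 h to 8 h was 1.27, and the NCS step of 0.20 passed the test (adjusted p = 0.000552). The call at 4 h was lost, with an adjusted p of up to 0.0833, without replicate 1 or 2 of H2O2 at 4 h or without any of the 3 replicates of NCS at 4 h.

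The receptor GFRAL stood at -2.31 in all 21 libraries, near the lowest value of the table (-2.314). The co-receptor RET, a receptor tyrosine kinase, had low levels of 3.36 to 4.21 in all libraries. After H2O2 it rose by 0.75 (4 h, SE 0.05, limma adjusted p = 1.39e-09), 0.20 (8 h) and 0.15 (24 h). A rise at 4 h of H2O2 was not particular to RET among genes of low level. PECAM1 rose by 0.33 and LRRC25, a neighbour of GDF15, by 0.32, while KRT19 differed by -0.01. RET did not pass the test in NCS at any of the 3 times, and its level in H2O2 exceeded that in NCS by 0.77 (4 h, adjusted p = 1.02e-09) and 0.22 (8 h). Of 14 measured receptors, related ligands and processing proteases, the one with the largest mean change was GDNF, a neurotrophic ligand that also signals through RET, at 8.07 in untreated cells. GDNF rose by 0.96, 0.99 and 0.71 after H2O2 and by 0.99, 0.95 and 0.78 after NCS at 4, 8 and 24 h, and its H2O2 minus NCS difference did not pass at any time (-0.03, 0.04 and -0.07). MMP14, a membrane protease reported to cleave GFRAL, rose by 0.46 at 24 h of H2O2 and by 0.31 at 24 h of NCS, and GFRA1, a co-receptor for GDNF, fell by 0.34 and by 0.25. FURIN, a convertase of propeptides such as that of GDF15, stayed between 11.93 and 12.31.

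The other ligands of the TGF-beta superfamily moved less than GDF15 in every treated group. For rises at 24 h this follows from the choice of GDF15, and the earlier differences use the same untreated libraries. The differences of the 25 measured ligands from untreated cells lay between -0.94 and 0.94 over the 6 treated groups, and 7 further ligands were listed at 0 in every library. By adjusted p alone, 13 were higher and 3 lower at 4 h of H2O2 (26.2% and 19.7% of all genes), and 6 were higher and 3 lower at 24 h of NCS (19.6% and 18.4%). In a fit of only the genes with a mean rLog value of at least 5, the 13 became 3 and the 6 became 3. The share of all genes under this limit was not taken, so these 2 counts are not set against it. INHBA, the activin A subunit, rose by 0.67 at 4 h in both treatments and by 0.22 (H2O2) and 0.31 (NCS) at 24 h. BMP2, a bone morphogenetic protein, rose by 0.57 at 24 h of H2O2 and by 0.36 at 24 h of NCS. GDF6 fell by 0.79 at 24 h of H2O2 and by 0.30 at 24 h of NCS, and BMP4 fell by 0.46 and by 0.38.

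The 8 transcription factors reported here are known to act on the GDF15 gene. At 4 h all 8 were higher under H2O2 than under NCS by the adjusted p (26.3% of all genes). The differences were 1.26 (DDIT3), 1.20 (CEBPB), 1.10 (ATF4) and 0.92 (EGR1), but 0.17 (TFEB and TFE3) and 0.07 (SP1 and RELA). GDF15 itself was lower in H2O2 at this time, and a link to the level of these factors was not tested. The mRNA of ATF4 had values of 12.84, 12.75 and 12.78 in untreated cells, 13.69, 13.69 and 13.73 in H2O2 at 4 h and 12.63, 12.60 and 12.59 in NCS at 4 h. ATF4 rose after H2O2 by 0.92, 0.97 and 0.55 at 4, 8 and 24 h, whereas after NCS it fell by 0.18 at 4 h, differed by -0.04 at 8 h (not passing) and rose by 0.21 at 24 h. DDIT3 rose by 1.45, 1.20 and 1.39 after H2O2 and by 0.83 at 8 h and 0.88 at 24 h after NCS, with 0.19 at 4 h of NCS not passing (adjusted p = 0.0622). CEBPB, a basic leucine zipper factor, rose after H2O2 by 1.16, 1.11 and 0.99 and after NCS by 0.30 at 8 h and 0.55 at 24 h. EGR1, an immediate early zinc finger factor, fell in all 6 treated groups, by 0.43 at 4 h of H2O2 and by 1.35 at 4 h of NCS. TFEB, a lysosomal factor, rose by 0.66 at 24 h of H2O2 and by 0.44 at 24 h of NCS, and SP1, TFE3 and RELA differed from untreated cells by at most 0.24 in any group.

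Targets of p53 rose in both treatments. Of the 30 measured, 26 were higher at 4 h of H2O2 (26.2% of all genes), 29 at 8 h (18.8%) and 29 at 24 h (20.2%). At these times 1, 0 and 1 were lower (19.7%, 18.6% and 19.9% of all genes), with median differences of 0.43, 0.72 and 0.79. After NCS all 30 were higher at 4 h (7.47% of all genes), at 8 h (10.5%) and at 24 h (19.6%), with medians of 0.74, 0.76 and 0.74. The medians over all genes lay between -0.01 and 0.01 in every comparison. BTG2 rose by 1.68, 1.86 and 1.80 after H2O2 and by 2.10, 1.85 and 1.47 after NCS, and BBC3, the pro-apoptotic PUMA, rose by 1.56, 1.15 and 1.13 and by 1.45, 1.14 and 0.86. GDF15 exceeded all 30 at 8 h and at 24 h in both treatments and at 4 h of H2O2, and 29 of them at 4 h of NCS. At 24 h this follows from the choice of GDF15, and the earlier differences use the same untreated libraries.

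Like GDF15, most p53 targets were lower in H2O2 than in NCS at 4 h. In this comparison 22 of 30 were lower (18.0% of all genes) and 1, GADD45A, was higher (26.3%), with a median of -0.25. A lower value than the -0.30 of GDF15 was found for 14 of the 30. At 8 h, 8 were higher (18.7% of all genes) and 9 lower (15.4%), with a median of 0.01, and without H2O2 8 h replicate 2 the count of higher targets was 13, while a fit of only the groups compared gave 4. At 24 h, 11 were higher (11.0%) and 5 lower (10.9%), with a median of 0.10. The change from 4 h to 8 h passed in the direction of GDF15 for 17 of 30 (14.7% of all genes) and in the opposite direction for 5 (18.0%), with a median of 0.30. It was largest for MDM2, the ubiquitin ligase of p53 (1.02), close to the 1.05 of GDF15.

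The integrated stress response list separated the treatments at every time. After H2O2, 21 of 24 genes were higher at 4 h (26.2% of all genes), 22 by 8 h (18.8%) and 22 by 24 h (20.2%), and 0, 0 and 1 were lower (19.7%, 18.6% and 19.9%), with medians of 0.82, 1.02 and 0.91. After NCS, 3 were higher (7.47%) and 7 lower (9.72%) at 4 h, 10 were higher (10.5%) and 1 lower (13.3%) by 8 h, and 20 were higher (19.6%) and 1 lower (18.4%) by 24 h, with medians of -0.07, 0.05 and 0.40. The 7 lower genes became 3 without untreated replicate 1 and 4 without untreated replicate 3, NCS 4 h replicate 2 or NCS 4 h replicate 3. CHAC1, a glutathione-degrading enzyme, rose by 1.79 at 4 h of H2O2 and differed by -0.12 at 4 h of NCS. TRIB3 rose by 1.06 and differed by 0.02 in the same groups, and neither NCS value passed. SESN2, a target of both p53 and ATF4, had values of 9.87, 9.89 and 9.85 in untreated cells, 11.72, 11.73 and 11.77 at 4 h of H2O2 and 10.96, 11.00 and 10.96 at 4 h of NCS. It was higher in H2O2 at 4 h by 0.77 (adjusted p = 3.35e-08), while GDF15 was lower by 0.30.

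Of the 24 genes, 22 were higher under H2O2 than under NCS at each of the 3 times (26.3%, 18.7% and 11.0% of all genes), with medians of 0.87, 0.89 and 0.52. The basic leucine zipper factor ATF5 was lower at 4 h (-0.22, adjusted p = 0.000451). None of the 24 was as low as GDF15 at 4 h. At 8 h the 0.75 of GDF15 was above 10 of the 24, and at 24 h its 0.85 was above 20 of them. At 4 h GDF15 fell within the range of the p53 targets and below that of the integrated stress response genes. Its -0.30 (SE 0.11) was close to the -0.22 of ATF5. At 8 h and 24 h GDF15 lay above the range of the p53 targets (highest 0.46 and 0.45). It lay within that of the integrated stress response genes at both times. These differences are not scaled to the size of each gene's own response. At 8 h of NCS GDF15 had risen by 2.23, and TP53INP1, the p53 target at 0.46, by 1.01. A comparison relative to response size was not made. GDF15 was chosen by its 24 h values, so its place at 24 h is given as a description. The test of GDF15 against either list as a whole was not made.

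**Figure D3:**
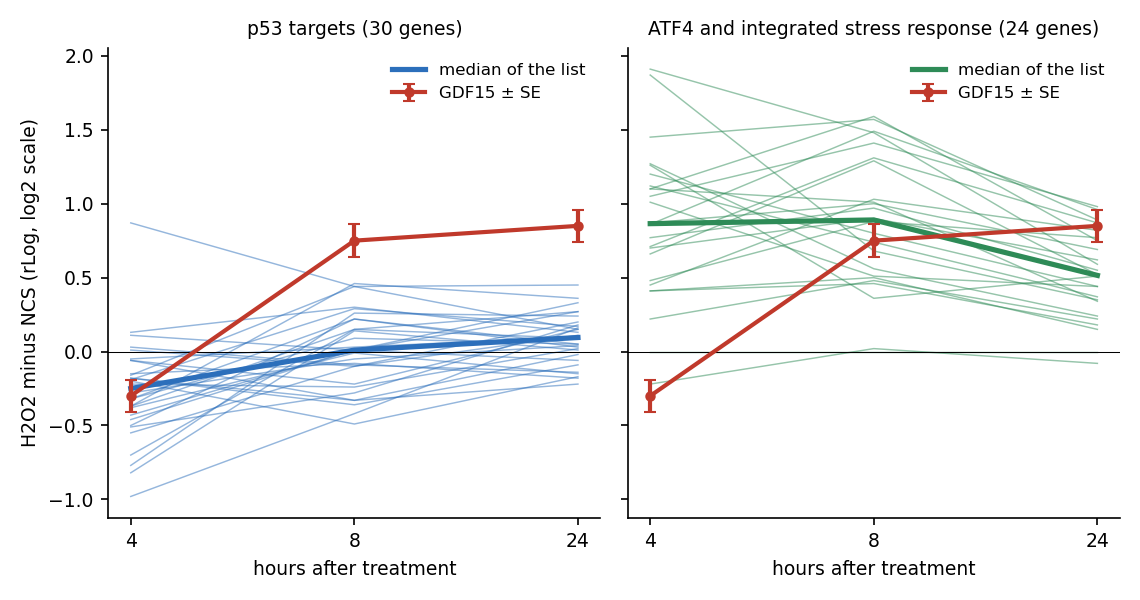
The H2O2 minus NCS difference (rLog units, log2 scale) at 4, 8 and 24 h, drawn at equal spacing, is shown for 30 p53 targets (left) and 24 integrated stress response genes (right), with a thin line per gene, a thick line for the list median and GDF15 ± SE in red. GDF15 moves from -0.30 to 0.75 and 0.85, while the medians move from -0.25 to 0.01 and 0.10 on the left and from 0.87 to 0.89 and 0.52 on the right.

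A significant difference in favour of NCS at 4 h and of H2O2 at 8 h, as in GDF15, was found for 677 of the 19694 genes (3.44%), and the reverse for 240 (1.22%). Of the 30 p53 targets 6 did so, MDM2, SESN1, TP53INP1, FAS, TNFRSF10B and SUSD6 (listed as KIAA0247), and of the 24 integrated stress response genes none did. In a fit restricted to the groups compared the count was 448.

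The pattern most like that of GDF15 was sought over the 7 group means, among the 590 other genes whose means span at least 1. The 10 genes with the highest Pearson r were TP53INP1 (0.98), TNFRSF10B (0.96), DYRK3 (0.93), FAM212B (0.93), CDKN1A (0.93), DUSP4 (0.90), PID1 (0.88), PHLDA3 (0.87), TAP1 (0.87) and FAS (0.86). They share the libraries and the normalization with GDF15, and the means include the 24 h values that chose GDF15, so r and what follows from it are a description with no test. Of these 10, 5 belong to the list of p53 targets, which has 14 members among the 590 genes, and 0 to that of the integrated stress response, which has 19. TP53INP1 encodes a p53-inducible nuclear protein, TNFRSF10B and FAS encode death receptors, DUSP4 is a MAP kinase phosphatase, DYRK3 is a kinase, and TAP1 transports peptides for antigen presentation. The median r was 0.84 for those 14 p53 targets and 0.63 for those 19 integrated stress response genes, against -0.48 for the 590 genes. An r over 0.8 was reached by 10 of the 14, 0 of the 19 and 21 of the 590.

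TP53INP1 had values of 9.15, 9.15 and 9.07 in untreated cells, 10.05, 9.98 and 10.09 at 4 h of H2O2, and 10.39, 10.43 and 10.40 at 4 h of NCS. At 8 h it stood at 10.74, 10.46 and 10.59 in H2O2 and at 10.20, 10.11 and 10.09 in NCS. Its H2O2 minus NCS difference was -0.37 at 4 h and 0.46 at 8 h (SE 0.05 each), given without a test because these means chose the gene for its likeness to GDF15. The differences of the 10 genes from untreated cells stayed between 0.10 and 1.62, below those of GDF15 in each group. At 24 h this follows from the choice of GDF15 as the largest rise. The choice of the 10 depended on the measure, since 2 of them were also among the 10 highest by Spearman's rho. Among these 10, rho was 0.96 for PID1 and 0.93 for DUSP4, which are on neither list. It ran from 0.57 (FAS) to 0.89 (TP53INP1) for the p53 targets, and was 0.68 for FAM212B and TAP1 and 0.64 for DYRK3. How many p53 targets are among the 10 highest by rho was not counted.

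**Figure D4:**
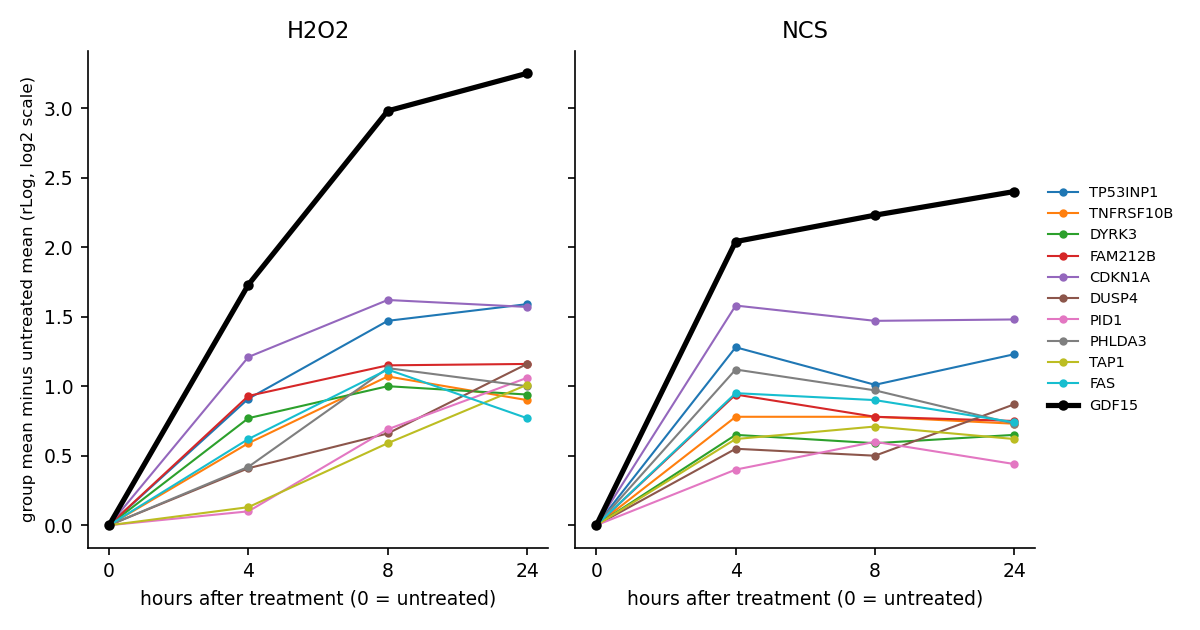
Differences of group means from untreated cells (rLog units, log2 scale) after H2O2 (left) and NCS (right) at 0, 4, 8 and 24 h, drawn at equal spacing, are shown for GDF15 (black) and the 10 genes with the most similar means. All lines start at 0, and in H2O2 GDF15 reaches 3.25 at 24 h while the highest of the 10, TP53INP1, reaches 1.59.

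Other secreted stress factors were less regular. Of 20 measured, 14, 13 and 12 were higher (4, 8 and 24 h of H2O2, against 26.2%, 18.8% and 20.2% of all genes) and 1, 1 and 3 lower (19.7%, 18.6% and 19.9%). After NCS, 9, 11 and 11 were higher (7.47%, 10.5% and 19.6%) and 2, 1 and 2 lower (9.72%, 13.3% and 18.4%). PAPPA differed by -0.06 at 4 h of H2O2 (not passing) and rose by 1.80 at 24 h, and after NCS it rose by 0.77, 1.29 and 1.89. LIF, an IL-6 family cytokine, rose by 1.88 at 4 h of H2O2 and by 0.41 at 24 h, and after NCS by 1.22 and 0.91. ANGPTL4, an inhibitor of lipoprotein lipase, rose by 0.63, 0.80 and 0.98 after H2O2 and by 0.67, 0.79 and 0.90 after NCS. It had an r of 0.96 with GDF15, and its span of 0.98 lay under the limit of 1 used for the most alike genes. Its H2O2 minus NCS differences were -0.04, 0.01 and 0.08, so a high r did not require the order of treatments seen in GDF15. VEGFA, the angiogenic factor, rose by 1.29, 1.22 and 1.26 after H2O2 and after NCS rose by 0.70 at 24 h, with -0.16 and -0.10 earlier not passing.

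Of the 10 other annotated genes that start within 100 kb of GDF15, 6 had values. PGPEP1, a pyroglutamyl peptidase gene that starts 45571 bases upstream on the same strand, had values of 9.01, 9.02 and 9.03 in untreated cells and rose at 24 h to 9.91, 9.88 and 9.86 in H2O2 and to 9.86, 9.85 and 9.83 in NCS. It fell by 0.13 at 4 h of H2O2 and its difference at 4 h of NCS did not pass (0.05, adjusted p = 0.573), when GDF15 was already higher. LSM4, a subunit of the RNA-binding LSM complexes, fell by 0.36 at 24 h of H2O2 and by 0.29 at 24 h of NCS. MIR3189 lies in the intron of GDF15 on the same strand, so reads of unspliced GDF15 RNA cannot be told from its own. Its values were 2.27 in untreated cells, and it was higher by 0.12, 0.12 and 0.11 after H2O2 and by 0.10 at 24 h of NCS, while 0.09 and 0.04 at 4 and 8 h of NCS did not pass, nor did any H2O2 minus NCS difference (0.03, 0.08 and 0.01). LRRC25 rose by 0.32 at 4 h of H2O2, ISYNA1, an inositol synthase, by 0.54, and SSBP4 did not pass there (0.04).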

How the data were processed

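RNA of 7 groups of 3 libraries of hTERT-HPNE cells was sequenced from stranded mRNA libraries. Per the labels and the study's methods, the authors aligned reads with HISAT2, counted them with htseq-count and deposited log2-scale rLog values made with DESeq2 over all libraries. The processing notes name hg19 with no versions. The annotation is not given in the sources used here. The values hold no counts, so depth is unknown.

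Of 23368 genes, 3674 at 0 in every library were left out. The 7 groups were fitted together with limma 3.58.1 (R 4.3.3, mean-variance trend, Benjamini-Hochberg adjustment over 19694 genes, limit 0.05). The design was tested on simulated data. The members and lists were chosen with earlier results of these data known. Named genes are GDF15, the 10 most alike in group means, the 3 next below it at 24 h per treatment, neighbours within 100 kb, up to 4 per list with the largest mean difference, RET, GFRAL and the factors reported to act on the gene, of which 1 is not reported here. FOSB, HMOX1, MDM2, GADD45A, ATF5, SESN1, SUSD6, FURIN and the other markers were named after their values were seen. Alternatives were median alignment, quantile normalization, a mean of at least 5, a fit of the groups compared, the replicate block, a 0.58 limit, other likeness measures and each library left out. Positions came from GENCODE v29 and the promoter from RefSeq.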

Additional observations from a re-analysis of the deposited data

Results flagged for a closer look

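The change of the H2O2 minus NCS difference of GDF15 between 4 h and 8 h was 1.05 (SE 0.16). It is listed here because the test of the difference between the 2 time points itself passed (limma, adjusted p = 4.67e-05). All 3 H2O2 libraries were below all 3 NCS libraries at 4 h and above them at 8 h. Without H2O2 8 h replicate 2 the change was 1.27.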

How the results depend on the processing

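The H2O2 minus NCS differences of GDF15 kept their direction under every alternative run. At 4 h the value lay between -0.33 and -0.29 when each library was left out. The adjusted p (limma) exceeded 0.05 in 5 of these fits, all without a library of H2O2 or NCS at 4 h, reaching 0.0833. The call was kept without H2O2 4 h replicate 3. At 8 h the value lay between 0.63 and 0.97, and the change from 4 h to 8 h between 0.93 and 1.27. Their adjusted p-values (limma) were at most 0.0265 and 0.00229 over all alternatives. The NCS step from 4 h to 8 h, 0.18 to 0.22 without each library, passed the test in the fit of only the groups compared (0.20, adjusted p = 0.00762) and without H2O2 8 h replicate 2, the library that sets the pooled spread. The H2O2 8 h difference from untreated cells lay between 2.86 and 3.20 without each library, the upper value without that replicate. The crossover count was 448 in the fit of only the groups compared and 548 to 788 without each library. Of the 10 most alike genes, 2 remained by Spearman's rho, 2 with a span of at least 0.5, and 7 to 10 without each library. Of 1623 list counts of 5 or more under alternatives, 39 moved by over 1.5 times. A replicate block gave -0.30 at 4 h (adjusted p = 0.0352) and 0.75 for 8 h (adjusted p = 6.17e-05) and changed none of the 5 calls for GDF15. Deviations of same-numbered libraries had a mean correlation of 0.0274 (-0.1488 to 0.2133) over 63 pairs, against -0.0137 for different numbers. Between H2O2 and NCS the same-numbered correlations were -0.0462 to 0.1111 at 4 h and 0.0381 to 0.192 at 8 h. Whether the numbers mark shared batches was not tested. Shrinkage by rLog and the unknown depth limit values of low genes such as RET and MIR3189.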
